A study of Callithrix jacchus with 4 samples.

Results

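The complement genes *C1QA*, *C1QB*, *C1QC* and *C3* were followed across the cell types of marmoset primary visual cortex after ischemic injury, by single-nuclei RNA sequencing (snRNAseq). These 4 genes were chosen by name, and 3 of them were among the 32323 genes listed for the nuclei. *C1QB* and *C1QC* were listed in the injured table only, *C3* was listed in both tables, and *C1QA* was not listed in either, so that its level was not analysed here. For the injured cohort, the vasoconstrictor peptide endothelin-1 (ET-1) was injected into V1 of 1 hemisphere of adult marmosets, and nuclei of V1 were taken 7 days later from 3 animals (F1619, F1565 and F1711, called injured replicates 1, 2 and 3), with 1 library for each animal. For the control cohort, V1 nuclei of 3 adult marmosets without a lesion were pooled in 1 library. The spread between control animals was therefore not measured. Isolation of nuclei (a sucrose gradient for injured tissue, detergent lysis and a DAPI sort for control tissue), the facility, the sequencer and the removal of doublets were not the same for both cohorts, and their effects cannot be told apart from that of injury.

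Complement is a set of secreted and membrane proteins that tags cells and debris for removal. In the classical pathway, C1q, a protein built from A, B and C chains encoded by *C1QA*, *C1QB* and *C1QC*, binds a target and turns on the proteases C1r and C1s. All pathways meet at C3, whose cleavage products coat the target and are read by receptors on phagocytes, and inhibitors on or near host cells stop the cascade. In the brain, C1q is known mainly as a product of microglia, and C3 as a product of microglia and of some reactive astrocytes.

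The study's labels gave 7 cell types: microglia, astrocytes (Astro), endothelial cells (Endo), oligodendrocyte precursor cells (OPC), oligodendrocytes (Oligo), inhibitory neurons (InN) and excitatory neurons (ExN). *C1QB* was one of the genes by which the study named microglia, so differences between cell types are described here and not tested. The libraries held 7500, 12527 and 9510 injured nuclei and 8610 control nuclei, with a median of 3531 to 4504.5 unique molecular identifiers (UMIs, the tags of single captured transcripts) per injured nucleus and 2117 per control nucleus. Nuclei labelled microglia numbered 2823, 2692 and 2218 in the injured libraries and 129 in the control library. Of the study's marker genes, 32 of 33 in the injured cohort and 31 of 32 in the control cohort peaked in their own cell type. The exceptions were the microglial marker *GPR34*, highest in OPC in the injured cohort, and the Endo marker *FLT1*. In control *FLT1* was highest in nuclei labelled microglia. Between 15 and 27 cell barcodes were shared by any pair of libraries.

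*C1QB* and *C1QC* were highest in microglia in every injured animal. For each library and cell type the UMIs were summed, and levels are given per nucleus and as CPM (the gene's UMIs scaled to the total UMIs of the sum). *C1QB* stood at 1.51, 1.63 and 1.27 UMIs per microglial nucleus in injured replicates 1, 2 and 3 (1.47 ± 0.179, SD, n = 3), or 354, 609 and 354 CPM. *C1QC* stood at 1.39, 1.49 and 1.196 UMIs per microglial nucleus (1.36 ± 0.151, SD, n = 3), or 326.5, 560 and 332 CPM. Injured replicate 2 was the highest of the animals for both chains on either scale, and its microglial nuclei were the shallowest, at a median of 2428 UMIs against 3930 and 3183. A *C1QB* UMI was found in 53.3%, 49.1% and 47.3% of microglial nuclei and a *C1QC* UMI in 53.7%, 48.6% and 44.5%. In ExN, which are not counted among the main sources of C1q, the shares with a UMI were 12.1% ± 4.78 for *C1QB* and 14.5% ± 5.998 for *C1QC* (SD, n = 3), although the ExN nuclei were deeper, at medians of 5378 to 7077 UMIs.

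In the 6 other cell types the C1q chains lay far below the microglial level. Over the 18 sums of these types and animals, *C1QB* ranged from 0.0923 to 0.264 UMIs per nucleus with a median of 0.116, and *C1QC* from 0.106 to 0.344 with a median of 0.141. No microglial sum overlapped these ranges. The mean over microglia was 9.98 times the mean over the other sums for *C1QB* and 7.54 times for *C1QC*. Among the other types Endo was highest, at 0.201 ± 0.0548 UMIs per nucleus for *C1QB* and 0.245 ± 0.0858 for *C1QC* (SD, n = 3). Within each of the 3 animals Endo was the highest of these 6 types for both chains, although the ranges over animals overlapped. Injured replicate 1 was the highest animal for both chains in each of the 6 types. On the CPM scale the order was microglia, Endo (81.6 ± 25.1 for *C1QB*), Oligo (50.5 ± 13.3), Astro (31.5 ± 8.81), OPC (30.0 ± 10.8), InN (23.2 ± 5.97) and ExN (21.7 ± 6.99), so that, outside microglia, types with shallower nuclei tended to come first. For *C1QB* the ranges of Endo, Oligo and Astro did not overlap on this scale, and those of the 4 lowest types did.

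**Figure D1:**
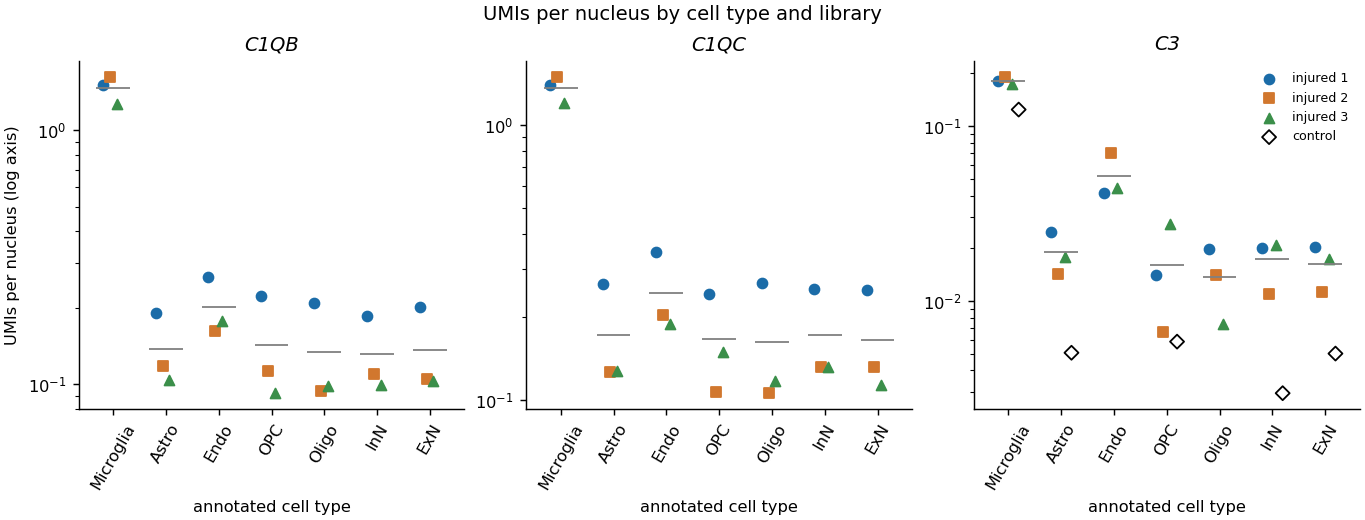
UMIs per nucleus of C1QB, C1QC and C3 (log axis) by annotated cell type. Filled points are the 3 injured libraries, grey lines their mean, and open diamonds the control library for C3, whose values of 0 in Endo and Oligo cannot be drawn on a log axis. Microglia stand above every other type in each injured animal, and for C3 the Endo points stand between microglia and the rest.

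*C3*, the central component of the cascade, was far less abundant than the C1q chains, with 1911 UMIs in 1418 of 29537 injured nuclei. In microglia it stood at 0.181, 0.191 and 0.173 UMIs per nucleus in injured replicates 1, 2 and 3 (0.181 ± 0.00877, SD, n = 3), or 42.3, 71.4 and 48.05 CPM. The animals were closer to each other for *C3* than for either C1q chain on the scale per nucleus. A *C3* UMI was found in 12.1%, 13.6% and 12.4% of microglial nuclei. Endo was second, with 0.0411, 0.0703 and 0.0444 UMIs per nucleus (0.0520 ± 0.0160, SD, n = 3). These values overlapped neither microglia nor any of the 5 remaining types, whose means lay between 0.0137 (Oligo) and 0.0190 (Astro) UMIs per nucleus, with ranges that overlapped one another. A *C3* UMI was found in 1.90% ± 0.545 of astrocytes, at median depths of 2903 to 5279.5 UMIs, and in 1.60% ± 0.442 of ExN (SD, n = 3). With every nucleus thinned at random to 1000 UMIs, the shares were 4.63% ± 1.39 in microglia, 1.98% ± 0.838 in Endo, 0.603% ± 0.193 in Astro and 0.266% ± 0.112 in ExN. Without thinning, the ranges of the astrocytic and ExN shares overlapped, and the astrocytic share was the higher in each animal (2.49%, 1.42% and 1.78% against 1.99%, 1.12% and 1.69%). At 1000 UMIs it also lay above it in each animal (0.386% to 0.754% against 0.155% to 0.377%), while at 500 UMIs it was 0% in injured replicate 3 against 0.166% in ExN. In CPM, on 37 and 141 unthinned UMIs, Astro (3.65 to 4.67) and ExN (2.02 to 2.99) did not overlap.

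Outside microglia the UMIs of C1q grew less than the depth of the nucleus on average, whereas those of *C3* in Endo grew with it. The nuclei of each type and animal were split at their median depth, and UMIs per nucleus above the split were divided by those below it. In microglia the ratio was 4.99 ± 0.526 for *C1QB*, 4.59 ± 0.618 for *C1QC* and 3.53 ± 0.490 for *C3*, against 2.62 ± 0.154 for the depth itself (SD, n = 3 animals). In Endo the ratio was 1.01 ± 0.159 for *C1QB* and 0.888 ± 0.241 for *C1QC*, and 3.94 ± 0.634 for *C3*, against 3.63 ± 0.396 for depth. The deposited clusters described further on also differ in depth: cluster 16 of microglia is shallow and low in C1q, and cluster 19 of Endo is shallow, high in C1q and low in *C3*. The part of cluster makeup in these ratios was not tested. In the other 5 types the mean ratios of the C1q chains lay between 0.968 and 1.44, below the depth ratios of 1.60 to 2.02. In single animals the ratio of a chain was below that of depth, except for *C1QC* in Oligo of injured replicate 2, at 1.70, where depth ratios in Oligo reached 1.67. *C3* in Astro (1.92 ± 0.805), Oligo (2.23 ± 1.60) and ExN (1.61 ± 0.556) rested on few UMIs and varied widely between animals.

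**Figure D2:**
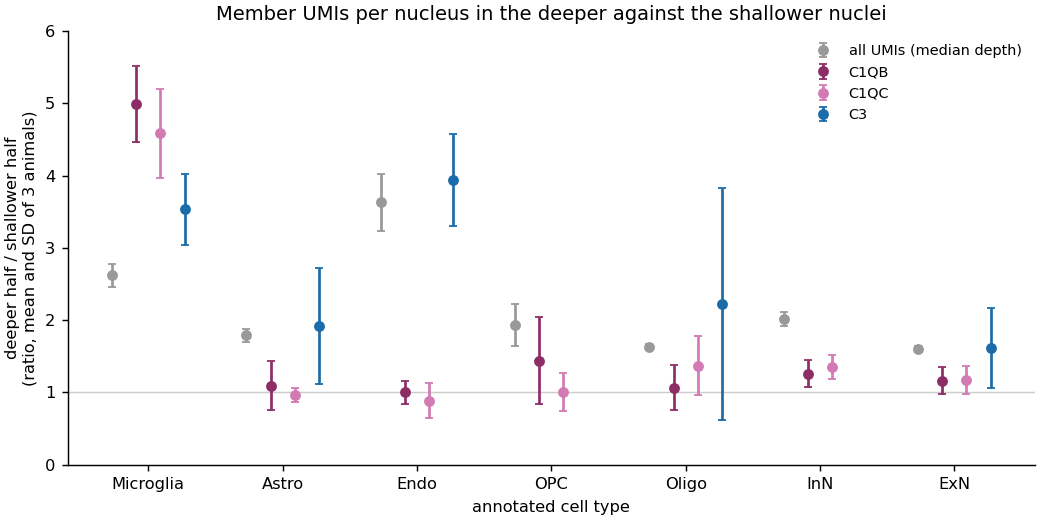
UMIs per nucleus in nuclei above the median depth divided by those below it, per cell type (linear axis, mean and SD over 3 injured animals), for all UMIs (median depth, grey) and each complement gene. The C1q chains exceed the grey points in microglia and lie below them elsewhere, with means of 0.888 to 1.44, and C3 follows depth in Endo. OPC and InN have no C3 point because an animal had no C3 UMI below the split.

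Nuclei outside microglia that carried UMIs of microglial genes held more C1q, but it was also found in nuclei without any. Outside microglia, 6417 nuclei (29.4%) had no UMI of a list of 12 microglial genes, and of these 9.43% had a *C1QB* UMI, 12.1% a *C1QC* UMI and 1.70% a *C3* UMI. In the 9029 nuclei with 2 or more such UMIs, the shares were 13.9%, 16.4% and 2.30%, and these nuclei were deeper, at a median of 5774 against 2726 UMIs. Relative to the microglial level, the 6 other types held 8.96% to 13.8% of *C1QB* and 11.96% to 18.0% of *C1QC* per nucleus. The microglial genes *TYROBP* (9.54% to 15.0%), *FCER1G* (9.36% to 13.9%) and *LAPTM5* (7.12% to 11.3%) covered similar ranges, while *CSF1R* (1.72% to 4.61%) and *DOCK8* (3.32% to 5.09%) were lower. Other genes of that list ran much wider, with *P2RY12* from 3.51% to 40.3%, *INPP5D* from 6.97% to 36.9% and *GPR34* from 9.15% to 151.6%, so the list had no common level outside microglia. *C3* ran from 7.50% of the microglial level in Oligo to 28.4% in Endo. What share of these UMIs came from RNA outside the nucleus was not tested.

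With UMIs pooled over animals, the balance of the C1q chains differed between microglia and most other types. *C1QB* made up 51.9% of the UMIs of *C1QB* and *C1QC* in microglia (exact 95% binomial interval 51.3 to 52.6, counting error only), and 52.0%, 52.1% and 51.6% in the 3 animals. In the other types it made up 44.0% (InN) to 46.0% (OPC), with 45.4% in ExN (43.4 to 47.3) and 45.4% in Endo (43.1 to 47.7). The 6 other types had intervals that overlapped one another. For microglia the interval stood apart from those of Astro, Endo, Oligo, InN and ExN, and overlapped that of OPC (40.5 to 51.6). Single animals of the other types varied more, with OPC from 38.1% to 51.5%. In Endo of injured replicate 3 the share was 48.5% (44.5 to 52.6), an interval that held the microglial value of that animal. The same was so for Astro and Oligo in injured replicates 2 and 3 and for OPC in injured replicates 1 and 2. It was so for InN and ExN in no animal.

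By the number of UMIs, nuclei labelled microglia were the main source of all listed members in the injured libraries. They held 78.9% ± 2.19 of the *C1QB* UMIs of a library, 74.3% ± 1.36 of the *C1QC* UMIs and 73.6% ± 6.82 of the *C3* UMIs, with 27.5% of the nuclei on average (SD, n = 3). ExN, with 31.0% of the nuclei, held 8.07% ± 0.834, 9.78% ± 1.15 and 7.47% ± 1.69. Endo held 6.10% ± 1.73 of *C1QB*, 7.33% ± 1.19 of *C1QC* and 12.3% ± 5.12 of *C3*, and its *C3* share was 6.71%, 16.7% and 13.5% in injured replicates 1, 2 and 3. With every cell type given the same number of UMIs (its share of the CPM summed over the types), the microglial share was 64.2% ± 10.02 for *C1QB*, 58.1% ± 11.9 for *C1QC* and 57.2% ± 3.53 for *C3*, and the Endo share was 12.4% ± 4.315, 14.4% ± 4.975 and 22.2% ± 2.24. Over all alternatives the Endo share ran from 3.26%, without the non-microglial nuclei that held microglial marker UMIs, to 15.3% at 500 UMIs per nucleus for *C1QB*, and from 4.32% to 17.3% for *C1QC* under the same settings. In the control library *C3* had 50 UMIs, of which 16 fell in microglia and 27 in ExN, a type with 5402 of its 8610 nuclei.

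The nuclei labelled microglia fell into deposited clusters that differed in complement. Clusters were drawn by the study on all genes, so these differences too are descriptions. Cluster 6 (3698 nuclei) held 1.93 ± 0.328 UMIs of *C1QB*, 1.74 ± 0.303 of *C1QC* and 0.105 ± 0.0337 of *C3* per nucleus. Cluster 21 (1798 nuclei) held 1.997 ± 0.212 of *C1QB* and 1.91 ± 0.203 of *C1QC*, values that overlapped those of cluster 6, but 0.533 ± 0.0557 of *C3*, which lay above cluster 6 in each animal (SD, n = 3). A *C3* UMI was found in 34.0% ± 2.83 of the nuclei of cluster 21 and 8.53% ± 3.01 of those of cluster 6, and, thinned to 1000 UMIs, in 11.5% ± 3.45 and 2.78% ± 1.55. Cluster 21 thus held 67.4% of the microglial *C3* UMIs with 23.3% of the nuclei. Of 12 microglial genes 7 were higher in cluster 21 than in cluster 6, among them *P2RY12*, a receptor of resting microglia (258 against 141 CPM), and 5 were lower, among them *TYROBP* (278.5 against 313 CPM). Of 4 macrophage genes *CD163* (226.5 against 736 CPM), *F13A1* (1296 against 1759 CPM) and *MRC1* (105.1 against 370 CPM) were lower and *LYVE1* was higher (23.3 against 14 CPM). Of 4 monocyte or granulocyte genes *S100A8*, *S100A9* (152 against 8.70 CPM) and *CSF3R* were higher and *CCR2* was lower (5.80 against 17.01 CPM). *TOP2A*, a gene of dividing cells that is in none of these lists, stood at 361 against 11.4 CPM. No other gene of dividing cells is given here, and whether these nuclei were dividing was not tested.

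Cluster 16 (2216 nuclei, median 1497 UMIs) held lymphocyte genes, with the T cell gene *CD3E* at 96.3 CPM and the B cell genes *CD79A* and *MS4A1* at 87.1 and 135.5 CPM, each in 10.4% to 12% of its nuclei and in at most 0.703% of those of clusters 6 and 21. *CD2*, of the same list, was found in 16.2% of its nuclei against 19.5% in cluster 6 and 17.6% in cluster 21. Of the 12 microglial genes, 8 were lower than in cluster 6, among them *P2RY12* (26.1 against 141 CPM), *CSF1R* (30.0 against 219 CPM) and *CTSS* (236 against 808 CPM), and *PTPRC* (1306 against 732 CPM), *DOCK8* (1150 against 1102 CPM), *GPR34* and *CX3CR1* were higher. The C1q chains stood at 0.252 ± 0.0458 UMIs per nucleus for *C1QB* and 0.267 ± 0.0612 for *C1QC*, with means inside the range of the cell types outside microglia on that scale, and *C3* stood at 0.0219 ± 0.00838 (SD, n = 3). In CPM, with these shallow nuclei, *C1QB* stood at 149 ± 33.1 (118 to 184), above the 110.6 CPM that was highest among the other types taken whole. *C1QC* stood at 158 ± 39.3 (117 to 196), a range that held their highest value of 144.3 CPM. Both ranges lay below those of clusters 6 and 21. Cluster 19 of Endo, which was also shallow, stood at 156.5 ± 30.75 CPM for *C1QB* and 207 ± 43.5 CPM for *C1QC*. Cluster 16 held 28.7% of the nuclei labelled microglia, but 4.95% of their *C1QB*, 5.70% of their *C1QC* and 3.55% of their *C3* UMIs. A further cluster, 27, held 21 nuclei of 2 animals and 9, 8 and 6 UMIs of *C1QB*, *C1QC* and *C3*.

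In the nuclei labelled Endo, *C3* was held mainly by 1 cluster. Cluster 20 (705 nuclei) had *C3* at 0.184, 0.285 and 0.146 UMIs per nucleus in injured replicates 1, 2 and 3 (0.205 ± 0.0718, SD, n = 3), with a UMI in 12.4% ± 3.18 of the nuclei. It held 59.8% of the Endo *C3* UMIs with 15.9% of the nuclei. Its nuclei carried the matrix genes *LAMA2* (2098 CPM), *COL1A2* (2322 CPM) and *DCN* (1421 CPM), and *FLT1*, an endothelial receptor, at 31.5 CPM, so its leading genes went against the endothelial label. Cluster 14 (1647 nuclei), in which *FLT1* stood at 2208 CPM, had *C3* at 0.0374 ± 0.0152 UMIs per nucleus. Cluster 19 (2005 nuclei, median 1150 UMIs), with the neuronal gene *SYT1* at 2763 CPM and *FLT1* at 21.5 CPM, had *C3* at 0.0159 ± 0.00580 and the highest C1q of these clusters, 0.234 ± 0.0541 for *C1QB* and 0.309 ± 0.0778 for *C1QC*. Cluster 11 (87 nuclei) had no *C3* UMI. The marker genes of cluster 20 and of cluster 19 were chosen after their values were seen.

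Across all 20 clusters outside microglia with at least 50 nuclei, *C3* pooled over animals ran from 0 to 0.203 UMIs per nucleus with a median of 0.0136. Cluster 20 of Endo was the highest and cluster 14 of Endo the next, at 0.0382. For the C1q chains no cluster stood apart in this way per nucleus, with *C1QB* from 0.0319 to 0.227 and *C1QC* from 0.0532 to 0.301, both highest in cluster 19 of Endo. In CPM this shallow cluster did stand above the others, at 153 for *C1QB* and 203 for *C1QC*. The next were cluster 20 of Endo for *C1QB* (61.6 CPM) and cluster 11 of Endo for *C1QC* (64.5 CPM).

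**Figure D3:**
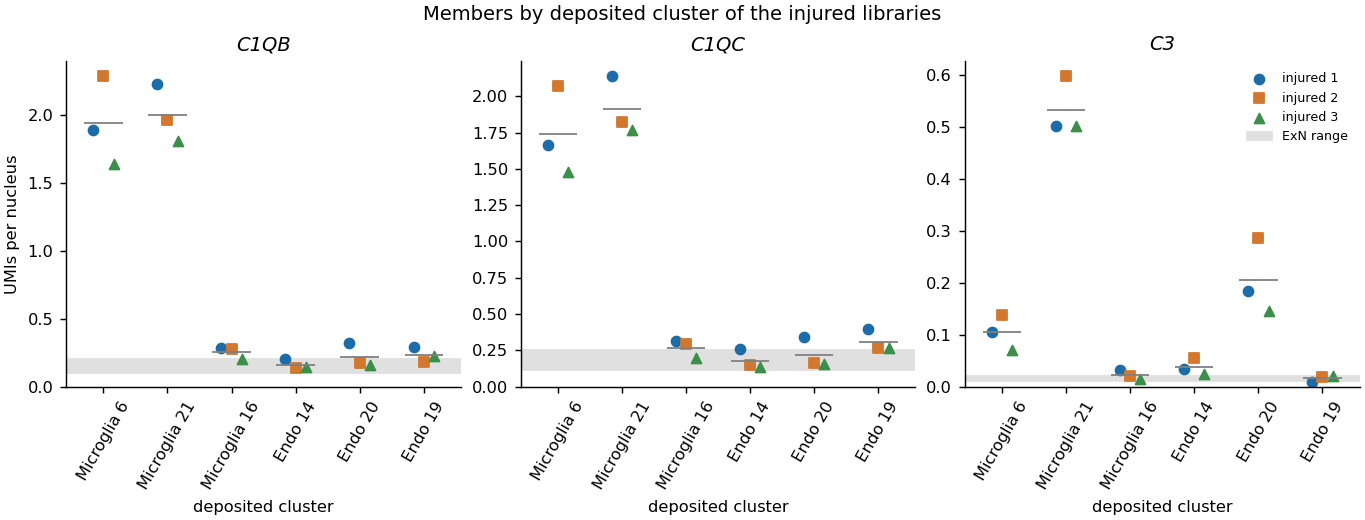
UMIs per nucleus (linear axes) of C1QB, C1QC and C3 in the deposited clusters of nuclei labelled microglia and Endo, for the 3 injured libraries, with the mean as a grey line and the ExN range over animals as a grey band. Clusters 6 and 21 share a high level of both C1q chains, clusters 21 and 20 stand out for C3, and cluster 16, whose nuclei are shallow, lies nearer to the neuronal band than to clusters 6 and 21 on this scale.

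Within microglia, the chains of C1q were found together more often than the product of their single shares, and *C3* was somewhat more frequent in nuclei with a chain. At 1000 UMIs per nucleus, 10.7% ± 4.12 of the microglial nuclei held both chains, 29.8% ± 1.22 held 1 of them and 59.5% ± 5.33 held neither, while the product of the shares of the single chains was 6.70% ± 2.54 (SD, n = 3). A *C3* UMI was found in 5.67% ± 1.28 of nuclei with a C1q chain and in 3.92% ± 1.35 of nuclei without. Inside cluster 21 these shares were 11.5% ± 3.24 and 11.4% ± 3.79, and inside cluster 6 they were 3.07% ± 1.68 and 2.53% ± 1.48. In cluster 16 they were 2.04% ± 0.738 and 0.928% ± 0.588. In cluster 16 these shares rest on 2, 2 and 2 *C3*-positive nuclei with a chain and 6, 6 and 1 without. The gap for *C3* in percentage points was smaller within each of these clusters than over all microglia. Without thinning, 35.3% ± 3.25 of the microglial nuclei held both chains.

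The genes whose pattern was most like that of the members were other genes high in microglia. Likeness was the Pearson correlation of log2(CPM + 1) over the 21 injured sums (7 cell types in 3 animals, which share libraries and depth) among 14775 genes with at least 100 UMIs. For *C1QB* the closest were *C1QC* (r = 0.993), *TYROBP* (0.990), *LAPTM5* (0.986), *FCER1G* (0.984) and *ITGB2* (0.979). For *C1QC* they were *C1QB* (0.993), *TYROBP* (0.991), the unnamed gene ENSCJAG00000005827 (0.988), *LAPTM5* (0.986) and *FCER1G* (0.982). For *C3* they were *FGR* (0.955), *TAL1* (0.955, with 117 UMIs), *ARHGAP25* (0.954), *IL2RG* (0.952) and the unnamed gene ENSCJAG00000020125 (0.952). None of the 5 genes closest to *C3* was among the closest to a C1q chain.

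The comparison of the cohorts asked whether *C3* differed between injured and uninjured cortex in each cell type. It was tested with the quasi-likelihood test of edgeR on the summed UMIs, with Benjamini-Hochberg adjustment over all genes of the fit, and a gene was called where the adjusted p was below 0.01, the natural-log fold change exceeded 0.25 in size and 10% or more of the nuclei of one cohort held a UMI. In microglia *C3* stood at 42.3, 71.4 and 48.05 CPM in the injured animals and at 129 CPM in the control library, which held 16 *C3* UMIs in 15 of 129 nuclei (11.6%, exact 95% interval 6.66 to 18.4). All 3 injured libraries lay below the control library on this scale, while per nucleus they lay above it (0.173 to 0.191 against 0.124), since the control microglia were shallower, at a median of 793 UMIs. The fitted log2 fold change was -1.002 (SE 0.55, adjusted p = 0.383), and *C3* was not called. In microglia 0 of the 13470 tested genes were called (0%), while 2857 had an unadjusted p below 0.05, DESeq2 called 304, and edgeR without injured replicate 2 called 395. The median log2 fold change of all tested genes was 0.42, or 0.17 with scaling by library size alone, and -0.31 with the 3021 genes that had no control UMI set at their bound. Against the fitted median the *C3* value was -1.42, and against the median at the bound it was -0.70. Without cluster 16 the log2 fold change of *C3* was -0.78 (adjusted p = 0.507). Summed over 4 macrophage genes (*MRC1*, *CD163*, *LYVE1*, *F13A1*), nuclei labelled microglia held 2487, 1220 and 2531 CPM in the injured animals and 1020 in control, over 5 lymphocyte genes 137, 107.5 and 126 against 72.3 (*CD3E*, *CD3D* and *CD79A* at 0 in control), over 4 monocyte or granulocyte genes 239, 110.4 and 260 against 137 (*S100A8* and *S100A9* at 0 in control), and over 12 microglial genes 6067, 5654 and 5992 against 8396 with none at 0. In control, the endothelial gene *FLT1* was highest in nuclei labelled microglia rather than in Endo. The part of these differences in the *C3* value was not tested.

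In the other cell types *C3* had a UMI in at most 3.96% of the nuclei of a cohort, under the 10% that a call needs, so it could not be called whatever its p, and only its values and adjusted p are given. In Astro, where 1.50% of all tested genes were called, *C3* stood at 4.67, 4.44 and 3.65 CPM in the injured animals and at 3.47 CPM in control, from 3 UMIs, with a log2 fold change of 0.39 (SE 0.79, adjusted p = 0.779). In ExN (3.85% of genes called) it stood at 2.99, 2.02 and 2.75 CPM against 1.58 (27 UMIs), a log2 fold change of 0.80 (SE 0.37, adjusted p = 0.152), and in InN (3.41% of genes called) at 3.20, 2.20 and 3.71 CPM against 0.973 (3 UMIs), a log2 fold change of 1.68 (SE 0.78, adjusted p = 0.160). In both neuronal types every injured library lay above the control library, but the difference did not pass the test. In Endo (6.18% of genes called) the injured animals held 17.3, 29.1 and 16.9 CPM and the control library no *C3* UMI among 204095. A limit of 3 UMIs over the library, or 14.7 CPM, was taken for it. The injured mean was at least 1.43-fold higher than control on that limit (adjusted p = 0.0843). The cohorts differed in the clusters that make up Endo, described further on: 155 of the 181 control nuclei were in a cluster high in *LAMA2*, while the injured cluster high in *LAMA2* (cluster 20) held 15.9% of the injured Endo nuclei and 59.8% of their *C3* UMIs. The part of this makeup in the *C3* values was not tested. The exact 95% upper bound of the control level in Endo was higher than the limit of 14.7 CPM. It was 18.1 CPM, above the values of injured replicates 1 and 3. In Oligo (0.774% of genes called) the injured animals held 6.15, 6.85 and 2.97 CPM and the control library none. On a limit of 3 UMIs, or 2.35 CPM, the injured mean was at least 2.27-fold higher (adjusted p = 0.0678). The exact 95% upper bound of the control level in Oligo was 2.89 CPM, just under the value of injured replicate 3. OPC held 18 injured UMIs and 1 control UMI of *C3*, which did not pass the low-count filter of edgeR. In that type 0.0697% of all tested genes were called.

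Whether the change of *C3* differed between cell types was tested as an interaction with library as a block. The effect in microglia minus that in Astro was -1.45 on the log2 scale (SE 0.76, adjusted p = 0.453), and was not called, with 0.300% of all tested genes called. For microglia against Endo, where the control library had no *C3* UMI, no fold is given, and the adjusted p was 0.0564, with 0.0643% of genes called. Neither interaction of *C3* passed the test.

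*C1QB* and *C1QC* had no row for the control cohort, and the tests above could not be made for them. At the mean CPM of the injured animals, the 124463 UMIs of the control microglia would have held 54.6 UMIs of *C1QB* and 50.5 of *C1QC*, or 44.0 and 40.6 at the level of the lowest animal. Control ExN, with 17090029 UMIs, would have held 370 and 446 UMIs at the injured ExN level. The control table listed 16383 genes, each with a UMI in at least 2 nuclei. How genes were kept for that table is not given in the sources used here, so a missing row cannot be read as a measured 0. In the 129 control nuclei the 12 microglial genes together had 1045 UMIs, more per UMI than in the injured libraries (8396 against 5654 to 6067 CPM). Single genes of the list ran from 2 UMIs of *FCER1G*, 14 of *TYROBP* and 18 of *LAPTM5* to 258 of *APBB1IP* and 325 of *INPP5D*.

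Within the injured microglia, C1q was compared between nuclei with and without a UMI of the macrophage genes *MRC1*, *CD163*, *LYVE1* or *F13A1*, each nucleus thinned to 1000 UMIs and both classes taken from the same animals, so that the differences between cohorts do not enter. A nucleus without a UMI at this depth may still express the genes. *C1QB* stood at 247, 418 and 259 CPM in the 3166 nuclei without such a UMI and at 369, 658 and 353 CPM in the 3967 nuclei with one, in injured replicates 1, 2 and 3. *C1QC* stood at 271, 412.5 and 239 CPM without and at 330, 598 and 335 CPM with a UMI. Both were higher in 3 of 3 animals, with log2 fold changes of 0.68 (SE 0.09, adjusted p = 3.15e-06) and 0.55 (SE 0.09, adjusted p = 6.48e-05) in edgeR with animal as a block, and both were called, beside 6.59% of all tested genes. Without the animal block the log2 fold changes were 0.67 and 0.55 and neither was called (adjusted p = 0.274 and 0.368). *C3* stood at 34.9, 67.2 and 60.1 CPM without and at 37.9, 72.7 and 37.0 CPM with a macrophage UMI, so that injured replicate 3 went against the other two animals. Its log2 fold change was -0.01 (SE 0.18, adjusted p = 0.989), and 0.22 without injured replicate 3. Without cluster 16, which made up 42.2% of the nuclei without a macrophage UMI and 8.22% of those with one, the C1q calls were lost, at 0.15 for *C1QB* (adjusted p = 0.464) and -0.03 for *C1QC* (adjusted p = 0.940), beside 1.69% of all genes called, and *C3* stood at -0.60 (SE 0.18, adjusted p = 0.0407, not called).

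The same was done for *P2RY12*, with 776 nuclei holding a UMI and 6357 without. *C3* stood at 36.8, 60.9 and 36.3 CPM in nuclei without and at 35.5, 163 and 113 CPM in nuclei with a *P2RY12* UMI. It was higher in 2 of 3 animals and level in injured replicate 1, where the nuclei with a *P2RY12* UMI held 11 *C3* UMIs. The log2 fold change was 1.16 (SE 0.22, adjusted p = 8.82e-06), but a *C3* UMI was found in 8.12% and 4.17% of the nuclei of the classes, under the limit of 10%, so *C3* was not called, beside 3.48% of all genes. Unthinned, with *C3* in 23.0% and 9.32% of nuclei, the log2 fold change was 0.99 (adjusted p = 1.66e-07) and *C3* was called. There *C3* stood at 32.9, 56.5 and 34.8 CPM without and at 55.6, 121 and 68.3 CPM with a *P2RY12* UMI, in classes not matched in depth. At 500 UMIs per nucleus the log2 fold change was 0.29 (SE 0.44, adjusted p = 0.899). Without the animal block the log2 fold change was 1.17 (adjusted p = 0.280). Cluster 21 made up 51.8% of the nuclei with a *P2RY12* UMI and 21.8% of those without. Inside cluster 21 the log2 fold change of *C3* was 0.52 (SE 0.23, adjusted p = 0.549) and inside cluster 6 it was -0.70 (SE 0.61, adjusted p = 0.768). In cluster 6 the nuclei with a *P2RY12* UMI held only 0, 4 and 2 *C3* UMIs in injured replicates 1, 2 and 3. *C1QB* (0.28, adjusted p = 0.100) and *C1QC* (0.22, adjusted p = 0.261) were not called. Without cluster 16 *C3* stood at 0.86 (adjusted p = 0.0230), *C1QB* at -0.03 and *C1QC* at -0.07, none of them called, beside 1.84% of all genes.

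**Figure D4:**
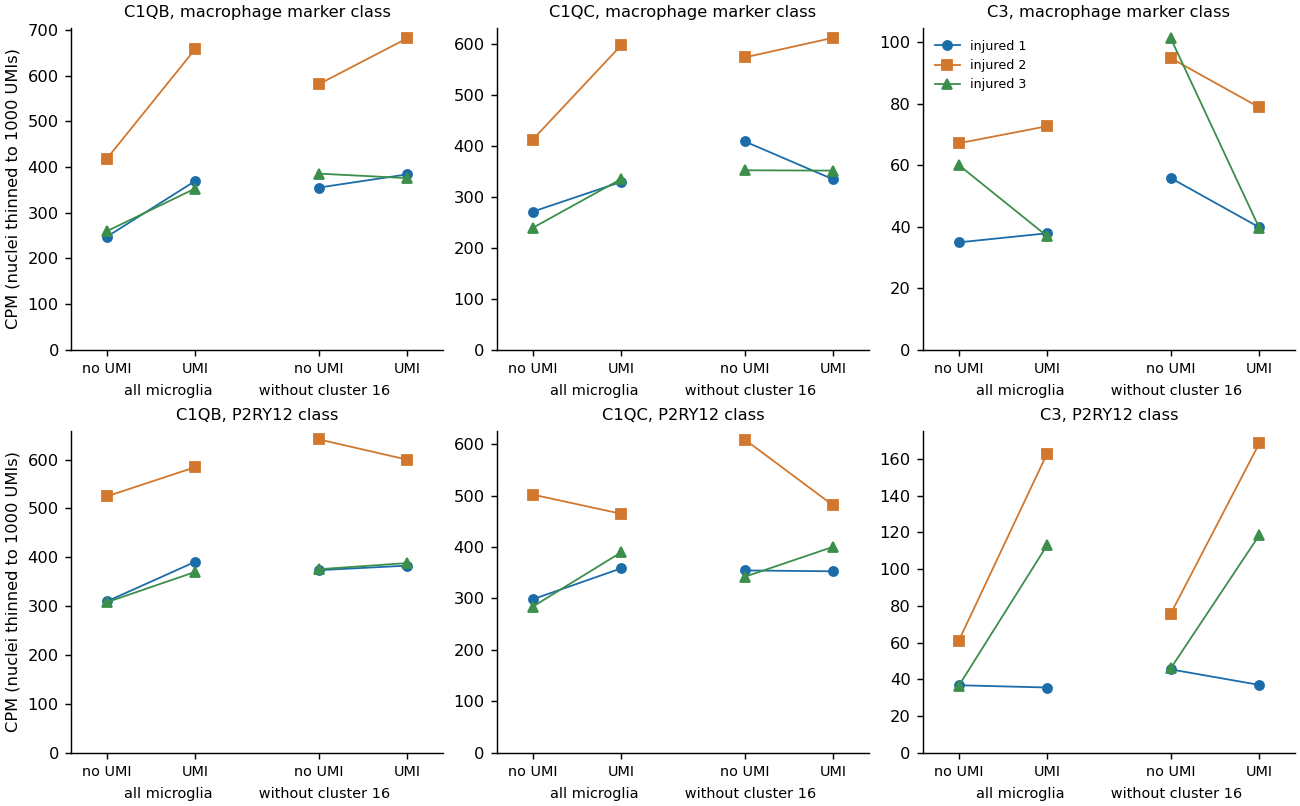
CPM (linear axes from 0, nuclei thinned to 1000 UMIs) of C1QB, C1QC and C3 in injured microglia with and without a UMI of a macrophage gene (top) or of P2RY12 (bottom), with lines joining the classes of an animal, for all microglia and without cluster 16. The rise of both C1q chains with macrophage genes flattens once cluster 16 is left out. At this depth C3 is higher with P2RY12 in injured replicates 2 and 3 only.

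Among the rest of the pathway, 41 of 47 other complement genes had a row, and *C2* and *C8G* had no injured UMI. Levels differ with gene length and are compared here between cell types only. Of the others, 14 were highest in Endo, 12 in microglia, 5 in Astro, 3 in ExN, 2 in OPC, 2 in Oligo and 1 in InN. Microglia led for receptors of cleaved complement, namely *ITGAM* (1850 CPM) and *ITGB2* (134.5 CPM), which together encode complement receptor 3, *VSIG4* (120 CPM), a phagocyte receptor for C3 fragments, and *C3AR1*, the C3a receptor (47.3 CPM against 6.67 in Endo, the next type). Microglia also led for *CFD* (57.6 CPM) and *CFP* (24.1 CPM), a protease and a stabiliser of the alternative pathway. The proteases *C1R* (80.7 CPM) and *C1S* (114 CPM) that C1q turns on were highest in Endo, with microglia next at 35.3 and 98.4 CPM. On the CPM scale these partners of C1q were led by a different label than its chains, for *C1S* by 1.16-fold. Endo nuclei were shallower than microglial nuclei, and levels per nucleus are not given for this list.

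Inhibitors were spread over the other cell types. In Endo the soluble inhibitors *SERPING1* (191 CPM) and *VTN* (51.6 CPM) and the membrane inhibitor *CD59* (164 CPM) were highest, as were the terminal component *C7* (294 CPM) and the lectins *FCN3* (132 CPM), *COLEC11* (311 CPM) and *COLEC12* (434.5 CPM). Astrocytes led for *CLU* (926 CPM), which blocks the terminal complex, *CFI* (145 CPM), which cuts C3b, and *MASP1* (20.0 CPM), a protease of the lectin pathway. Oligo led for *C4BPA* (34.2 CPM) and *CD55* (68.0 CPM), and neurons for *CSMD1*, *CSMD2* and *CSMD3* (709, 629 and 1120 CPM in ExN, with *CSMD1* at 684.5 CPM in InN and *CSMD3* at 1055 CPM in OPC) and *SUSD4* (283 CPM in InN). The microglial genes of this list and the genes called below were named after their values were seen.

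**Figure D5:**
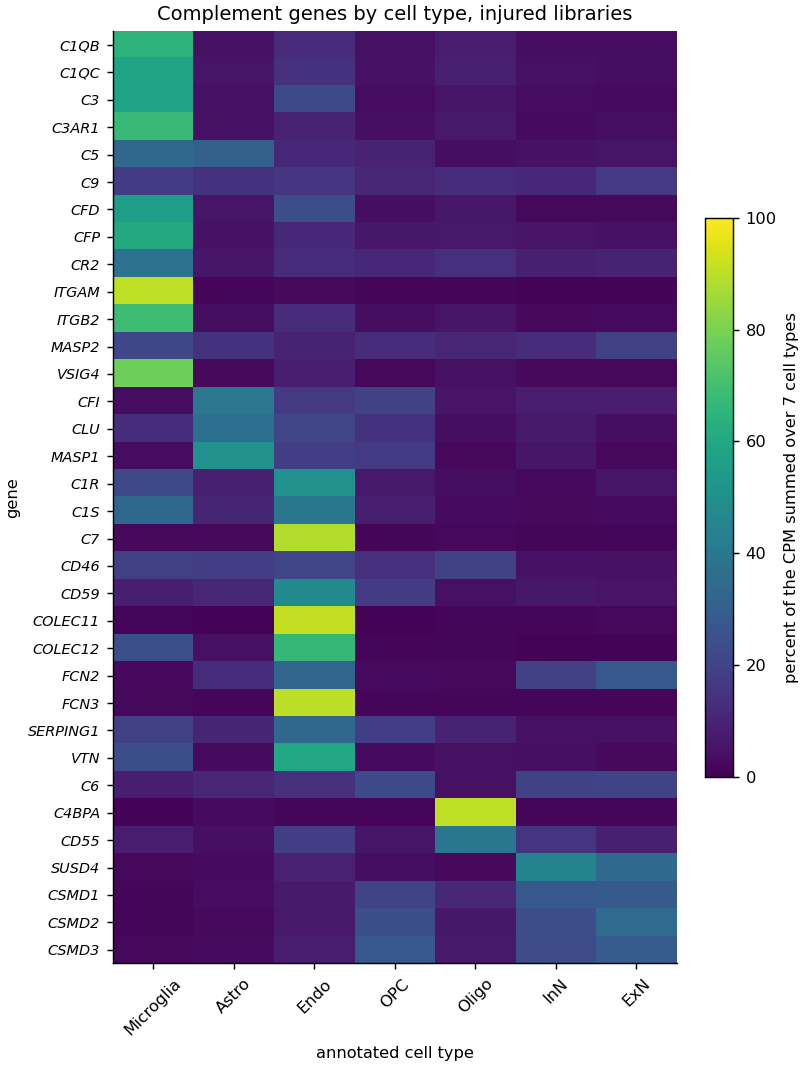
Share of the CPM summed over the 7 cell types that fell in each type (colour, 0 to 100%), for C1QB, C1QC, C3 and other complement genes with at least 100 injured UMIs, as the mean of 3 injured libraries. Rows are grouped by the cell type with the highest level, and C1QB, C1QC, C3, C3AR1, ITGB2 and VSIG4 share the microglia column.

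Between the cohorts, none of the 30 other complement genes tested in microglia was called by edgeR, while 11 had an unadjusted p below 0.05. DESeq2 called 1 gene of the list and edgeR without injured replicate 2 called 1. In Endo 10 of 28 were called (35.7%, against 6.18% of all genes), of which 8 rose and 2 fell. Among those that rose were *COLEC11* (337, 282 and 316 CPM in the injured animals against 29.4 in control, log2 fold change 3.53, adjusted p = 8.43e-04) and *CD59* (176, 166 and 151 against 19.6 CPM, log2 fold change 3.19, adjusted p = 0.00178). The others were *SERPING1*, *CLU*, *CSMD1*, *CSMD3*, and *C1S* and *FCN3*, which had 1 control UMI each. *CSMD1* and *CSMD3* were highest in ExN, and cluster 19, which carried the neuronal gene *SYT1*, held 45.1% of the injured Endo nuclei. A fit of Endo without cluster 19 called 777 of 12512 tested genes (6.21%). The values of the list genes in that fit are not given here, so the part of cluster 19 in these rises is not shown. *C7* (275, 253 and 353.5 against 980 CPM, log2 fold change -1.60) and *COLEC12* (457, 344 and 502.5 against 1303 CPM, log2 fold change -1.45) fell. Of the 181 control Endo nuclei, 155 belonged to a cluster with *LAMA2* at 4676 CPM and 26 to a cluster with *FLT1* at 2866 CPM. The part of this makeup in these changes was not tested. In ExN 3 of 32 were called (*CLU*, *CD59* and *FCN2*, 9.38% against 3.85% of all genes). In Astro 1 of 24 was called (*CD59*, with 2 control UMIs, 4.17% against 1.50%), and *CLU* was the only one called in Oligo (1 of 24, 4.17% against 0.774%) and in InN (1 of 26, 3.85% against 3.41%). All of these were higher in injured libraries. In OPC 0 of 20 were called, against 0.0697% of all genes. With genes that had no control UMI set at their bound, the median log2 fold change of the list was -0.27 in microglia beside -0.31 for all tested genes, and 1.08 in Endo beside -0.05. In microglia the fitted medians were 3.20 and 0.42, since 13 of the 30 genes had no control UMI.

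By class within the injured microglia, 3 of 23 tested genes of the list rose with macrophage genes (13%, against 6.59% of all genes), namely *VSIG4* (log2 fold change 1.63, adjusted p = 1.25e-08), *COLEC12* (1.09, adjusted p = 6.11e-05) and *ITGAM* (0.86, adjusted p = 1.41e-08). Without cluster 16 *VSIG4* remained called (0.89, adjusted p = 9.98e-05) and the other two were not. With *P2RY12* 5 of 23 were called (21.7%, against 3.48% of all genes), of which *COLEC12* (1.17) and *VSIG4* (1.10) rose, and *CLU* (-0.97), *SERPING1* (-0.89) and *ITGB2* (-0.73) fell, and these 5 genes were also called without cluster 16, together with *C1S* (-1.375). Without the animal block none of the 23 was called in either comparison (adjusted p of *VSIG4* = 0.0717 by macrophage class and 0.226 by *P2RY12* class). None of *C3*, *C1QB* and *C1QC* was called by *P2RY12* class in these fits.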

How the data were processed

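Nuclei of 3 injured libraries and 1 control library were used, with no nucleus removed. The deposited counts are raw UMI counts per gene and nucleus, which the authors made with cellranger (Cell Ranger 3.1.0 and Seurat in the submitters' processing notes) on calJac3 with an Ensembl annotation. The authors removed doublets from injured nuclei with Scrublet and filtered control nuclei in Seurat by their number of genes, and assigned cell types per cluster. Totals per nucleus were checked against the counts.

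Sums of UMIs for each library and cell type were compared with edgeR 4.0.16 in R 4.3.3 (TMM, filterByExpr, glmQLFit, glmQLFTest) on genes of both tables, with DESeq2 1.42.0 as an alternative. With 1 control library, the spread was taken from the injured libraries, and replicates were numbered in accession order. In class tests, the animal block pairs sums of nuclei of 1 animal. The steps were tested on simulated counts. Intervals are exact (Clopper-Pearson) 95% binomial intervals. With a median of 3531 to 4504.5 (injured) and 2117 (control) UMIs per nucleus, nuclei that express a weakly transcribed gene may show none of its UMIs. Python 3.11.15, numpy 2.4.6, pandas 2.3.3, scipy 1.17.1 and matplotlib 3.10.9 were used.

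The members and gene lists were chosen with earlier results of these data known. Genes were named as all members, genes of the complement list called in microglia (12 at most), those highest in another cell type by level, the 5 genes most like each member, and markers beside a result. Beyond this rule, list genes called in other cell types were named with their fold changes after their values were seen. Alternatives were DESeq2, scaling by library size or RLE factors, no low-count filter, thinning to 500 or 1000 UMIs, at most 2500 genes per nucleus, an adjusted p limit of 0.05, genes of either table with 0 assumed for control (also without each animal, added after the data were seen), no block, unthinned classes, another pseudocount or UMI minimum for likeness, other weightings of the source shares and leaving out each injured animal. Leaving out clusters 16 or 19 and taking clusters 6 or 21 alone were added after the data were seen. No sequence was used here. Of the other complement genes, 1 enters the counts of the list but is not reported here.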

Additional observations from a re-analysis of the deposited data

Results flagged for a closer look

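On the CPM scale each injured library lay above the control library for *C3* in Astro, Endo, Oligo, InN and ExN, and below it in microglia (mean 53.9 CPM over 3 animals, control 129) and OPC, although per nucleus each injured library lay above control in all 7 types. The difference from microglia was tested against Astro and Endo and passed in neither. It was not tested for the other types. In Oligo the mean of the injured animals was 5.32 CPM (2.97 to 6.85), and with 0 control UMIs no injured library could lie below. In InN it was 3.04 CPM (2.20 to 3.71, control 0.973, from 3 UMIs). In ExN it was 2.59 CPM (2.02 to 2.99, control 1.58, from 27 UMIs).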

How the results depend on the processing

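Over 35 results and 305 values under alternatives, 217 kept their direction and side of the threshold or their size and 69 moved. Of the rest, 10 changed sign, 6 lost a call with the sign kept and 3 gained a call. C1QC by macrophage class, without cluster 16 and in cluster 6 alone, is counted under changes of sign and also lost its call. The gained calls of C1QB and C1QC in microglia came with an assumed control value of 0. C3 injured against control was called in microglia under no alternative (log2 fold change of -1.28 to -0.83 without each animal in turn), and elsewhere it could not be called, being in too few nuclei. With animal as a block, C1QB and C1QC rose with macrophage genes in every fit that left out an animal (0.63 to 0.73 and 0.49 to 0.61). With no replicate block these were 0.67 and 0.55 with the calls lost. The calls were also lost without cluster 16 (0.15 and -0.027), in cluster 6 alone (0.18 and -0.17) and in cluster 21 alone (0.11 and 0.22), where fewer nuclei entered. C3 by macrophage class was 0.094 at 500 UMIs, 0.23 unthinned, and -0.18 to 0.22 without an animal, above 0 without injured replicate 3. By P2RY12 class, values in cluster 6 alone were -0.31 (C1QB), -0.26 (C1QC) and -0.70 (C3, on few UMIs). Without cluster 16 they were -0.027 and -0.067 for the chains. Unthinned C3 was called at 0.99, and at 500 UMIs C3 was 0.29. Taking the missing control value of C1q as 0, which is an assumption and no measurement, gave an adjusted p in microglia of 0.00182 to 0.0966 (C1QB) and 0.00185 to 0.0966 (C1QC) without an animal, lowest without injured replicate 2, and no call is drawn from it. The interaction for C1q could not be estimated. The cause of these changes was not tested.

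Of the complement list in microglia, 1 gene was called with DESeq2, and 0 to 1 without an animal. In Endo 7 to 14 genes were called without an animal and 5 at 500 UMIs, and in Astro 0 to 7, OPC 0 to 5, Oligo 1 to 2, InN 1 to 4 and ExN 1 to 6 without an animal, most without injured replicates 2 or 3. The share of all tested genes called moved as well. Without an animal it was 3.88% to 12.5% in Endo (3.73% at 500 UMIs), 0.655% to 5.72% in Astro and 0% to 7.15% in OPC. In Oligo it was 0.430% to 1.63%, in InN 1.93% to 11.9% and in ExN 0.517% to 6.15%. All microglial genes called numbered 0 to 395 without an animal, 304 with DESeq2, 347 at an adjusted p of 0.05 and 60 at 500 UMIs, and class calls of all genes 67 (macrophage) and 12 (P2RY12) with no block, 340 and 135 with DESeq2, 304 and 90 at 500 UMIs, 1752 and 1190 unthinned, and 366 to 761 and 235 to 263 without an animal (fewest without injured replicates 3 and 1).

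The microglial share of C1QB was 70.5% at 500 UMIs, 88.7% without other nuclei with 2 or more microglial UMIs and 64.2% with equal UMIs per cell type. For C1QC it was 68.0%, 85.4% and 58.1%, and 71.9% with at most 2500 genes per nucleus. For C3 it was 84.2% and 57.2% under the last pair of the former settings, and the Endo share 22.2% with equal UMIs per cell type. Without an animal these shares were 77.9% to 80.1%, 73.7% to 75.0%, 69.7% to 75.9% and 10.1% to 15.1%. With a pseudocount of 10 CPM, 2 of the 5 genes most like C3 were kept. No paired analysis of the cohorts was possible because the control library pooled other animals, without a lesion. The 129 shallow control microglia limit what can be detected.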
